A study of Mus musculus with 6 samples.

Results

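The mouse genome encodes a family of secreted Wnt proteins, and 10 of them were followed in developing molars: Wnt10a, Wnt10b, Wnt6, Wnt4, Wnt3a, Wnt5a, Wnt5b, Wnt7a, Wnt7b and Wnt11. Members were taken by gene symbol from the deposited expression table, which has 17582 rows, and all 10 were found. They make up most of the 18 Wnt ligand genes in that table. First mandibular molars were collected at postnatal day 4 from mice of the C57BL/6 strain, and messenger RNA was sequenced. The knockout group (K14-Cre; Wnt10aflox/flox, 3 libraries) carried Cre recombinase under the keratin 14 promoter, which is active in epithelium, and a floxed Wnt10a on both chromosomes. The control group (Wnt10aflox/flox, 3 libraries) was made up of littermates with the same floxed alleles and no Cre. The comparison asks whether related ligands shift where Wnt10a is targeted. The labels do not say which exons are flanked by loxP sites or how many animals went into each library. The p-values therefore describe the spread among these 6 libraries, which may be technical.

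Wnt proteins are lipid-modified glycoproteins that act over short distances. Many bind Frizzled receptors and Lrp5 or Lrp6 and stabilise beta-catenin, while others, such as Wnt5a and Wnt11, mostly act through receptors such as Ror2 on cell shape and movement. In teeth, Wnt signals pass between epithelium and mesenchyme from the first thickening of the dental epithelium to root formation, and in people loss of WNT10A function is a well known inherited cause of missing teeth.

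The ligands share a core that includes a serine codon, at which Porcupine attaches the lipid needed for secretion and receptor binding. The coding stretch of 48 bases around that codon is shown for Wnt10a, for its closest relative Wnt10b, for Wnt6, whose gene lies beside Wnt10a, and for Wnt5a, the other member whose groups did not overlap. Sequences are from GENCODE release M21 transcripts on GRCm38, written 5′ to 3′, with the serine codon in capitals.
Wnt10a: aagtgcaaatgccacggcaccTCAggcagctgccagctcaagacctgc
Wnt10b: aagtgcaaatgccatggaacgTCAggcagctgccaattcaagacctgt
Wnt6: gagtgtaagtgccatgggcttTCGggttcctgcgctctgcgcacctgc
Wnt5a: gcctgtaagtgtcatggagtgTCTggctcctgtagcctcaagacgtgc
Over this stretch Wnt10b had the same base as Wnt10a at 42 of 48 positions, Wnt3a at 38, and the other members at between 29 and 34. Across whole transcripts the longest identical run was 20 bases between Wnt10b and Wnt10a and 22 bases between Wnt4 and Wnt10a. No run of 50 bases occurred in the transcripts of more than 1 member, on either strand. Wnt11 shared 9.26% of its 50-base words with the processed pseudogene Gm8398, which overlaps the Wnt11 locus on the other strand. Wnt4 shared 4.33% with transcripts of 665 other genes. The values of these 2 ligands are less certain. The Wnt5b locus overlaps the protein-coding gene Fbxl14 on the other strand, but the Wnt5b transcript used here shared 0 of its 50-base words with other genes. The sources used here do not say whether reads were assigned by strand.

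Wnt10a (Entrez 22409, chromosome 1, 74791516 to 74804179 on the plus strand in mm10) was measured first, since it checks the labels. Levels are in FPKM, a read density that corrects for the length of a transcript and for the mapped total of a library. Genes of different length can then be set side by side, as far as the length used is right. The deposited length was 1962 bases for Wnt10a, 4354 for Wnt5a and 3494 for Wnt7b. Their GENCODE M21 transcripts used here had 2468, 7010 and 2521 bases. The order of the ligands and their shares rest on the deposited FPKM, and the effect of other lengths was not tested. The knockout libraries held 19.39, 19.94 and 18.07 FPKM, against 33.61, 36.59 and 31.68 FPKM in the control libraries. Every knockout library lay below every control library, with a gap of 11.7 FPKM between the groups. The knockout mean was 0.563 of the control mean, and across all pairings of 1 knockout with 1 control library the ratio ran between 0.494 and 0.629. Wnt10a fell by 0.80 on the log2(FPKM + 1) scale (95% interval -0.96 to -0.63, SE 0.077, limma adjusted p = 0.00609). It was the one gene called of 11934 tested, a background of 0.00838%. That background count was 6 without knockout 3 and 3 without control 2. With no filter on low values no gene was called (924 genes had an unadjusted p under 0.05), and the limma adjusted p of Wnt10a was 0.106. A molar holds epithelium and mesenchyme, and these values cannot tell fewer cells of a type from less RNA per cell. The ratio of 0.563 is for the molar, so it does not measure the loss within its epithelium. Reads from cells without Cre, or from exons outside the floxed part, were not told apart.

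The dental epithelium, the tissue in which the Cre acts, was present in all libraries. All 7 of its fixed markers, which include Krt14, Krt5 and Cdh1, were detected in each library. Their summed level ran between 2408 and 2926 FPKM in the knockout group and between 2147 and 2807 FPKM in the control group. The keratins Krt5, Krt14 and Krt17 made up most of this sum, averaging 1110, 892.5 and 429.5 FPKM over all libraries. Of the 7, Epcam had groups that did not overlap, between 13.95 and 19.09 FPKM in knockout libraries and between 10.18 and 13.74 FPKM in controls, beside 4.80% of all tested genes that were higher without overlap. Set against this sum, Wnt10a stood at 6.991, 6.815 and 7.505 FPKM per 1000 FPKM of markers in the knockout libraries, and at 12.22, 13.04 and 14.75 in the control libraries. The log2 difference of this ratio was -0.91 (exact permutation p = 0.1, two-sided, the smallest that 3 against 3 libraries can give). All 3 knockout libraries lay below all 3 controls. This ratio was chosen after the data were seen.

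The repertoire of the molar spanned a wide range of levels, from Wnt6 at the top to Wnt10b at the bottom. Wnt6, an epithelial ligand best known from kidney and somite development, stood at 76.7 ± 6.67 FPKM in knockout molars and 74.2 ± 7.76 FPKM in control molars (SD, n = 3 each). Wnt4, which turns kidney mesenchyme into epithelium and directs ovarian development, followed at 54.0 ± 7.38 FPKM in knockout molars and 50.3 ± 6.40 FPKM in control molars. In each group Wnt6 lay above Wnt4 and Wnt4 above Wnt5a without overlap of their ranges. Wnt10b averaged 1.473 FPKM in knockout molars and 1.363 FPKM in control molars, the lowest level of the 10. The order from the seventh place down was Wnt7b, Wnt5b, Wnt11 and Wnt10b in each group, again without overlap between neighbours.

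**Figure D1:**
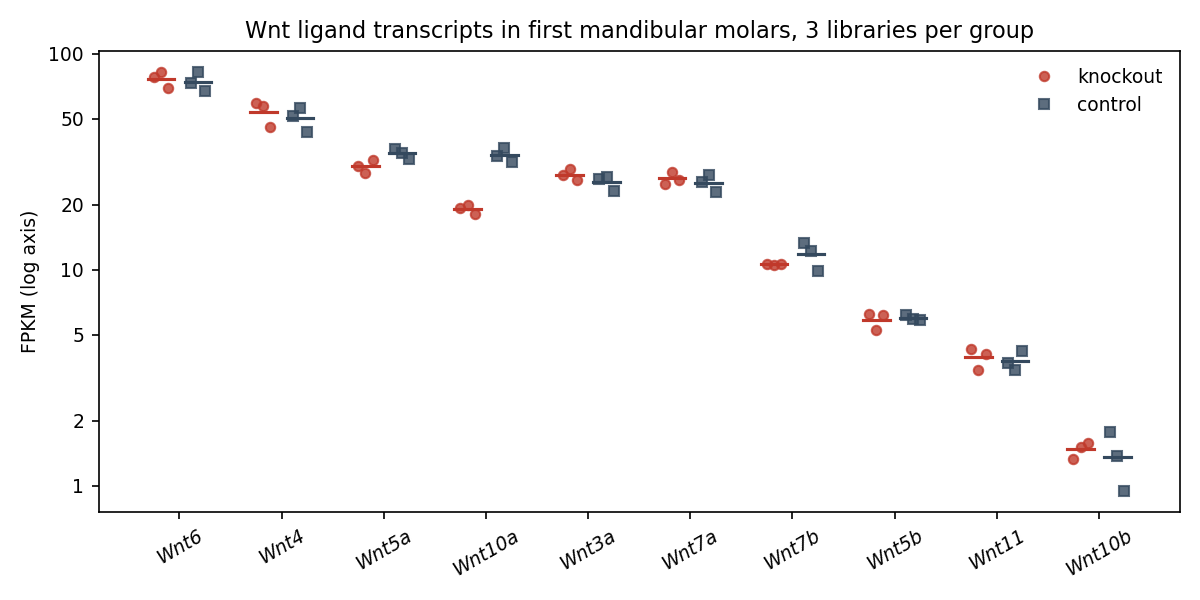
FPKM (log axis) of the 10 ligands in each library, with circles for the 3 knockout libraries, squares for the 3 control libraries and a line at the mean of each group. Wnt10a sits between 18.07 and 19.94 FPKM in knockout libraries and between 31.68 and 36.59 FPKM in controls, while the groups overlap for the other ligands apart from Wnt5a.

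The middle of the order is where the groups differed. In the knockout Wnt5a, Wnt3a and Wnt7a held the third to the fifth places with overlapping ranges, and Wnt10a was the sixth, below the lowest Wnt7a value of 25.06 FPKM and above the highest Wnt7b value of 10.67 FPKM. In the control Wnt10a was the fourth. Its range overlapped that of Wnt5a, and it lay above the highest Wnt3a value of 26.77 FPKM in all 3 control libraries. Wnt3a and Wnt7a overlapped each other in both groups.

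Wnt10b is the closest relative of Wnt10a and promotes bone formation and the onset of hair and mammary buds. It was at 1.33, 1.51 and 1.58 FPKM in the knockout libraries, against 1.77, 1.37 and 0.95 FPKM in the control libraries. The highest and the lowest value were both in controls. The log2 fold change was 0.08 (95% interval -0.21 to 0.36, SE 0.129, limma adjusted p = 0.950). Rebuilt from FPKM, these levels came to 54 to 64 reads in a knockout library and 38 to 70 reads in a control library, so the precision for Wnt10b is the poorest of the 10. Within a library, the log2 ratio of Wnt10a to Wnt10b was 3.70 ± 0.176 in the knockout and 4.68 ± 0.409 in the control (SD, n = 3 each). The difference of -0.98 had an exact permutation p of 0.1 (0.167 adjusted over 5 tests), and all 3 knockout libraries lay below all 3 controls.

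Wnt6 (chromosome 1, 74771892 to 74785322 in mm10) starts 19624 bases before Wnt10a on the same strand. It was at 78.22, 82.51 and 69.42 FPKM in the knockout libraries, against 73.08, 82.46 and 67.06 FPKM in the control libraries. The groups overlapped almost fully, and the log2 fold change was 0.05 (95% interval -0.15 to 0.25, SE 0.090, limma adjusted p = 0.954). The log2 ratio of Wnt10a to Wnt6 within a library was -2.00 ± 0.0545 in the knockout and -1.13 ± 0.0453 in the control (SD, n = 3 each). Its difference of -0.88 had an exact permutation p of 0.1 (0.167 adjusted over 5 tests), with all 3 knockout libraries below all 3 controls. Of the other 6 genes of the table that start within 150 kb of Wnt10a, 2 passed the filter on low values. Cyp27a1, a sterol hydroxylase, had a log2 fold change of -0.04 (limma adjusted p = 0.974). Ttll4, a tubulin glutamylase, was at 2.78, 3.50 and 3.42 FPKM in the knockout libraries, against 4.58, 3.66 and 3.90 FPKM in the control libraries. Its groups did not overlap, which held for 10.1% of all tested genes, and its limma adjusted p was 0.869. Prkag3, Cdk5r2, Fev and Cryba2 stayed below 1 FPKM in all libraries.

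Wnt5a, a ligand of mesenchyme that drives limb outgrowth and signals through Ror2, was the second ligand whose groups did not overlap. The knockout libraries held 30.32, 28.04 and 32.36 FPKM, against 36.37, 34.81 and 32.68 FPKM in the control libraries. The gap was 0.32 FPKM, between knockout 3 and control 3. The log2 fold change of -0.19 (95% interval -0.36 to -0.02, SE 0.076) did not pass by limma, at an unadjusted p of 0.0293 and an adjusted p of 0.869. Groups did not overlap for 2 of the 10 members, both lower in the knockout, and the background was 5.35% of tested genes lower and 4.80% higher without overlap. Mesenchyme markers also differed between libraries. The summed level of Vim, Pdgfra, Msx1, Col1a1 and Dspp ran between 5179 and 8066 FPKM in knockout libraries and between 6749 and 8419 FPKM in controls, with none of the 5 at 0. Msx1 alone of these had groups that did not overlap, between 30.05 and 33.24 FPKM in knockout libraries and between 35.54 and 37.65 FPKM in controls, beside the same 5.35%. The part of these markers in the values of Wnt5a was not tested. Wnt5b, the closest relative of Wnt5a and a regulator of cartilage growth, averaged 5.867 FPKM in knockout molars and 5.980 FPKM in control molars, a log2 difference of -0.03 (SE 0.088, limma adjusted p = 0.976).

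Wnt3a, the ligand most often used to activate beta-catenin and needed for trunk and tail formation, was at 27.32, 29.12 and 25.95 FPKM in the knockout libraries, against 26.34, 26.77 and 23.05 FPKM in the control libraries. Knockout 3 lay below 2 of the controls. The log2 fold change was 0.11 (95% interval -0.07 to 0.29, SE 0.080, limma adjusted p = 0.892). Wnt4 was at 59.29, 57.10 and 45.56 FPKM in the knockout libraries, against 51.27, 56.23 and 43.53 FPKM in the control libraries. Both groups spread over more than 10 FPKM, and the log2 fold change was 0.10 (95% interval -0.15 to 0.35, SE 0.113, limma adjusted p = 0.924). Wnt7a, which patterns the dorsal side of the limb, was at 25.06, 28.21 and 26.09 FPKM in the knockout libraries, against 25.40, 27.48 and 22.93 FPKM in the control libraries. The groups overlapped over most of their range, and the log2 fold change was 0.07 (SE 0.082, limma adjusted p = 0.927).

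Wnt7b, which acts in lung growth and brain vessels and marks oral ectoderm outside the early tooth buds in mice, was nearly constant in the knockout, at 10.67, 10.56 and 10.59 FPKM. The control libraries held 13.32, 12.27 and 9.82 FPKM. Control 3 lay below all knockouts and the other 2 controls above them, and the log2 fold change was -0.13 (95% interval -0.35 to 0.09, SE 0.101, limma adjusted p = 0.896). Control 1, the highest for Wnt7b, also held the most transcripts of oral mucosa keratins: Krt4 and Krt13 together stood at 144.59 FPKM there, against between 0.590 and 3.76 FPKM in the other 5 libraries, and their part in the value of Wnt7b was not tested. Without control 1 the log2 fold change of Wnt7b was -0.046, and without control 3 it was -0.248. Wnt11, which guides branching of the ureteric bud and movement of cells in early embryos, was at 4.31, 3.45 and 4.08 FPKM in the knockout libraries, against 3.70, 3.45 and 4.20 FPKM in the control libraries. The lowest values of the groups were equal, and the log2 fold change was 0.05 (SE 0.101, limma adjusted p = 0.963).

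**Figure D2:**
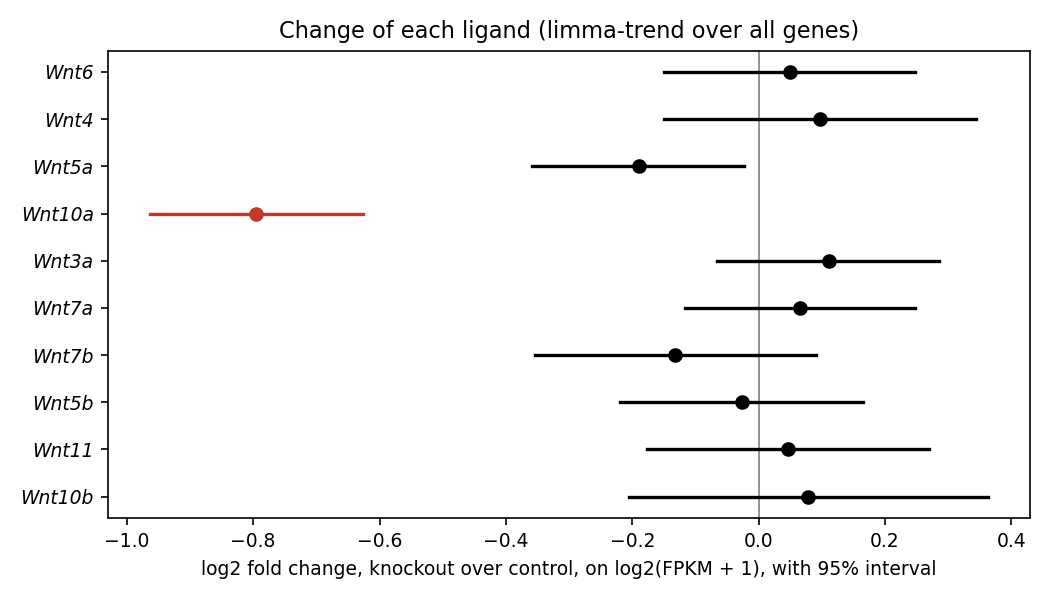
Log2 fold change of each ligand, knockout over control, on the log2(FPKM + 1) scale, with its 95% interval from limma-trend over all genes. Wnt10a at -0.80 (red) is the one called gene, and of the other intervals only that of Wnt5a, from -0.36 to -0.02, leaves out 0.

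Among the 9 ligands other than Wnt10a, then, none passed in either direction by limma (1 had an unadjusted p under 0.05, as did 5.70% of all tested genes). Their fold changes ran between -0.19 and 0.11 on the log2 scale, 6 above 0 and 3 below, with a median of 0.05 beside -0.005 over all tested genes. On the log2(FPKM + 1) scale the outermost bounds of their 95% intervals were -0.36 and 0.36, so shifts of that size stay possible. The added 1 shrinks changes of ligands at low levels, and the upper bound was that of Wnt10b. With a pseudocount of 0.1 the log2 fold change of Wnt10b was 0.141 (SE 0.211, against 0.129), so larger shifts of Wnt10b stay possible. The counts above are over members chosen with earlier results of these data known.

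Summed over the 9 other ligands, the level was 242.7, 245.7 and 221.8 FPKM in the knockout libraries, against 237.4, 250.8 and 210.1 FPKM in the control libraries. The difference of the means was 4.00 FPKM, or 1.72%, which is smaller than the SD of either group (13.05 and 20.75 FPKM; exact permutation p = 0.7). It became -7.345 FPKM without control 3 and -0.495 FPKM without knockout 2. With Wnt10a included, the sums were 255.9 ± 14 FPKM in knockout molars and 266.7 ± 23.1 FPKM in control molars (SD, n = 3 each; exact permutation p = 0.4). The difference of -10.83 FPKM became -23.31 FPKM without control 3, -0.507 FPKM without control 2 and -2.81 FPKM without knockout 3.

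The share of Wnt10a within the summed ligands separated the groups with little spread. It was 7.397%, 7.505% and 7.534% in the knockout libraries, against 12.40%, 12.73% and 13.10% in the control libraries. The knockout SD was 0.0720 percentage points and the control SD 0.353. The difference of -5.27 percentage points had an exact permutation p of 0.1 (0.167 adjusted over 5 tests). This share does not depend on how libraries are scaled to each other.

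**Figure D3:**
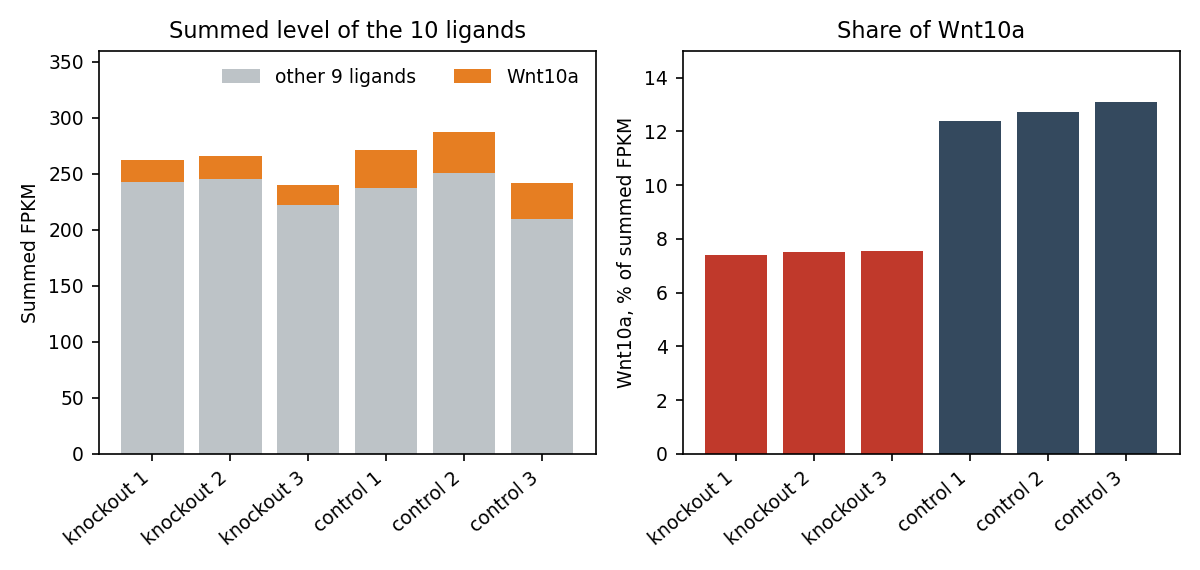
Left, summed FPKM of the 10 ligands per library, with Wnt10a on top of the other 9. Right, Wnt10a as a percentage of that sum per library, between 7.397% and 7.534% in the 3 knockout libraries and between 12.40% and 13.10% in the 3 controls, while the sums themselves overlap.

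Libraries of the same group differed in a way that many ligands shared. Control 3 held the lowest control value of 9 of the 10 members, Wnt11 being the exception, and also the lowest epithelium marker sum, 2147 FPKM. Knockout 3 held the lowest knockout value of Wnt6, Wnt4, Wnt3a and Wnt10a and the lowest epithelium sum of its group, 2408 FPKM. The summed level of 4 secretory ameloblast markers, Amelx, Ambn, Enam and Mmp20, went the other way. That sum was the highest of its group in knockout 3, at 244670 FPKM, and in control 3, at 244675 FPKM. Amelx made up most of it, and Enam was at its lowest knockout value in knockout 3. A low sum of the 7 markers thus does not stand for all dental epithelium. Over all 6 libraries the highest value of Wnt4 was 1.36 times its lowest in FPKM, and 1.15 times when each value was divided by the epithelium sum. For Wnt6 these ratios were 1.23 and 1.18, for Wnt3a 1.26 and 1.13, and for Wnt10b 1.86 and 1.48. They moved little for Wnt7a, at 1.23 and 1.20, and for Wnt7b, at 1.36 and 1.34. For Wnt5a, Wnt5b and Wnt11 they went the other way, at 1.30 and 1.59, 1.19 and 1.52, and 1.25 and 1.66. So did those of Wnt10a, at 2.02 and 2.16. Divided by the epithelium sum, Wnt10a alone of the 10 members kept groups apart. Wnt5a then ran between 9.584 and 13.44 FPKM per 1000 FPKM of markers in the knockout and between 12.40 and 15.22 in the control. For Wnt5a, a ligand of mesenchyme, the division widened the spread, so this overlap cannot tell whether its level differed. These ratios, too, were chosen after the data were seen.

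**Figure D4:**
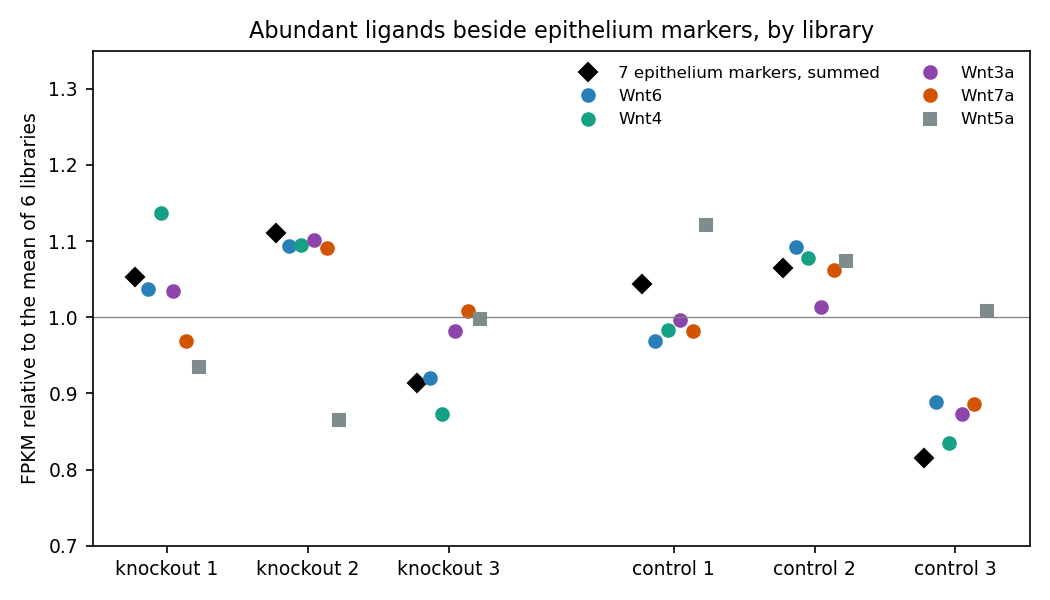
FPKM of 5 abundant ligands and of 7 summed epithelium markers in each library, each divided by its own mean over the 6 libraries. Wnt6 and Wnt4 lie low together with the epithelium sum in knockout 3 and control 3, while Wnt5a (grey squares) lies below its mean in the 3 knockouts, in knockout 3 by very little, and above it in the controls.

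Of the remaining Wnt genes, 8 of the 9 listed were in the table, and 7 of these did not reach the filter of 1 FPKM in at least 3 libraries. The highest of them was Wnt2b, a close relative of Wnt2 expressed in embryonic mesenchyme, at 0.52, 0.49 and 0.44 FPKM in the knockout libraries, against 0.74, 0.60 and 0.58 FPKM in the control libraries, without overlap of the groups. It was below the filter and was not tested. Wnt9a, which acts in joint and cartilage formation, was the exception, at 2.08, 2.09 and 2.40 FPKM in the knockout libraries, against 2.05, 2.26 and 1.80 FPKM in the control libraries (log2 fold change 0.07, limma adjusted p = 0.937). Wnt2 was listed at 0.03 FPKM in each knockout library and at 0 in each control library, a level near that of single reads.

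Genes that lipidate, carry, release or inactivate Wnt proteins gave no call. Of 16 tested, 0 passed in either direction by limma, against the background of 0.00838%. An unadjusted limma p under 0.05 was found for 3 of the 16, beside 5.70% of all tested genes. The median log2 fold change was 0.03, with 9 above 0 and 7 below. The groups did not overlap for 3 of the 16, beside 10.1% of all genes. Wls, the carrier that takes lipidated Wnts to the cell surface, was at 137.03, 140.59 and 127.13 FPKM in the knockout libraries, against 123.38, 121.57 and 109.89 FPKM in the control libraries (log2 fold change 0.19, SE 0.072, limma adjusted p = 0.869). Vps29, a subunit of the retromer that recycles Wls, was at 26.17, 25.69 and 24.64 FPKM in the knockout libraries, against 21.51, 22.99 and 20.84 FPKM in the control libraries (log2 fold change 0.22, limma adjusted p = 0.784). Notum, the enzyme that removes the lipid from Wnts and a feedback target of the pathway, was at 14.37, 14.68 and 13.25 FPKM in the knockout libraries, against 16.75, 16.26 and 15.17 FPKM in the control libraries (log2 fold change -0.18, limma adjusted p = 0.869). All 3 knockout libraries lay above all 3 controls for Wls and Vps29 and below them for Notum, and none of these 3 genes passed.

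The most abundant genes of that list beside Wls were Tmed2 and Tmed10, cargo receptors of the early secretory route, and Snx3, which sorts Wls with retromer. Their log2 fold changes were 0.05, 0.07 and 0.06, with overlapping groups. Porcn, the acyltransferase Porcupine that modifies the serine shown above, averaged 9.847 FPKM in knockout molars and 10.10 FPKM in control molars (log2 fold change -0.04, limma adjusted p = 0.968). Porcn, Notum, Vps29, Tcf7 and Wif1 were named after their values were seen, as were Wnt2, Wnt2b, Epcam and Msx1. The same holds for Dkk1, Apcdd1, Rnf43 and Axin2. Among 15 tested Wnt receptors, 0 passed by limma. An unadjusted limma p under 0.05 was found for 0 of them, beside 5.70% of all tested genes. Groups did not overlap for 0 of them, beside 10.1% of all tested genes. The median log2 fold change of the receptors was -0.03, with 4 above 0 and 11 below, beside a median of -0.005 over all tested genes. Among 12 tested feedback targets of beta-catenin signalling, 0 passed by limma. An unadjusted limma p under 0.05 was found for 1 (Notum, on this list and the processing list), beside 5.70% of all tested genes. The median log2 fold change of the targets was -0.07, with 3 above 0 and 9 below. The groups did not overlap for 3 of the 12, Notum, the transcription factor Tcf7 and the secreted inhibitor Wif1, all with lower values in the knockout, beside 5.35% of all tested genes that were lower without overlap.

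The genes whose levels over the 6 libraries were most like those of Wnt10a were ranked by the root mean square difference of log2(FPKM + 1) values, each centred on its own mean, among 8305 genes averaging 5 FPKM or more. The nearest were Ibsp, a bone and dentin sialoprotein (0.172), Itpr1, a calcium channel of the endoplasmic reticulum (0.175), Ndufa4l2, a mitochondrial protein induced at low oxygen (0.191), Angptl7, a secreted angiopoietin-like protein (0.211), and Sybu, an adaptor for kinesin transport (0.219). All 5 had groups that did not overlap, which this choice favours, and none passed, with limma adjusted p between 0.0735 for Itpr1 and 0.491 for Angptl7. Of the other ligands ranked, Wnt5a was the nearest, at rank 163 with a difference of 0.322, followed by Wnt7b at rank 490. Wnt6 stood at rank 5023, Wnt3a at rank 6733 and Wnt4, the farthest, at rank 6822. Wnt10b and Wnt11 averaged under 5 FPKM and were not ranked.

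The authors' deposited table gives its own comparison, by a test that the sources used here do not name. A total of 5 of the 10 ligands in the authors' deposited table had a q-value under 0.05, beside 24.4% of all genes with a q-value. These were Wnt10a (log2 ratio -0.83, q = 9.04e-96), Wnt5a (-0.20, q = 4.4e-14), Wnt4 (0.10, q = 2.2e-06), Wnt3a (0.12, q = 0.00214) and Wnt7b (-0.15, q = 0.00389) in the authors' deposited table. Library values of Wnt4, Wnt3a and Wnt7b overlapped between the groups, and by limma, which uses the spread between libraries, Wnt10a alone of these 5 passed.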

How the data were processed

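The authors deposited 1 table with FPKM per gene and library, given to 2 decimals. The submitters' processing notes name Bowtie2 and mm10; the quantification tool and the annotation release are not stated in the labels. The authors' own log2 ratio, q-value and p-value stand beside the FPKM, per the file headers, together with each gene's longest transcript length. FPKM depends on each library's total, so abundant enamel transcripts bear on all other values.

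Groups came from the genotype labels and replicate numbers from the titles. The 11934 genes, all 10 ligands among them, that reached 1 FPKM in 3 or more libraries were tested with limma-trend (limma 3.58.1, R 4.3.3). The model had log2(FPKM + 1) as the response, group as its sole term and Benjamini-Hochberg adjustment over all genes at 0.05. Sums, shares and ratios (5 in all) were compared by two-sided exact permutation tests over the 20 regroupings of 6 libraries, whose smallest p is 0.1, adjusted over the 5. Depth was read from the spacing of low FPKM values and was between 17960000 and 18460000 reads per library. At these depths between 85.7% and 88.6% of these values fell within 0.15 of a whole number of reads (30% by chance). Rebuilt reads served for description and 1 alternative.

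Members and lists were chosen with earlier results of these data known. Text names were all members, other Wnt genes averaging 1 FPKM, the 4 most abundant genes of the Wnt processing list, genes starting within 150 kb of Wnt10a and the 5 genes most like it. Genes named outside this rule are given as such in the text. The symbols of 25 genes, held as dates, were restored from gene numbers, and none is a member. Positions come from GENCODE M21. Alternatives were another pseudocount (0.1), other filters (none, 5 FPKM), a replicate block, median-ratio scaling, limma-voom and each library left out.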

Additional observations from a re-analysis of the deposited data

How the results depend on the processing

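Wnt10a stayed lower in all alternatives, with a log2 fold change between -0.842 and -0.741. It remained called except without a filter on low values, where the change was -0.795 with a limma adjusted p of 0.106, and 0 genes and 0 ligands were called; the cause was not tested. Leaving out 1 library at a time, its limma adjusted p ran between 0.0051 and 0.0463. The other 9 ligands passed in no alternative, with a lowest limma adjusted p of 0.211. The number of genes called was 3 with a filter at 5 FPKM, 2 with limma-voom on rebuilt reads and 8 with the replicate number as a block, and between 1 and 6 with 1 library left out; the cause was not tested.

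Same-numbered libraries had correlations of deviations from group means of -0.0622, 0.17 and 0.388. The numbers were not taken to pair the samples, though so few values cannot exclude a pairing. Knockout 1 correlated best with control 2 (0.304), knockout 2 with control 1 (0.193) and knockout 3 with control 3 (0.388). With the block the SE was 0.061 for Wnt4 and 0.056 for Wnt6, against 0.113 and 0.090 in the main fit. The one ligand called with the block was again Wnt10a.

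Leaving out 1 library turned the sign of small changes that had not passed. The log2 fold change ran between -0.052 and 0.201 for Wnt10b, -0.006 and 0.122 for Wnt11, -0.002 and 0.213 for Wnt4, -0.063 and 0.041 for Wnt5b, -0.02 and 0.127 for Wnt6, -0.107 and 0.025 for Porcn, -0.005 and 0.156 for Snx3, and -0.182 and 0.053 for Cyp27a1. Without a change of sign it ran between 0.045 and 0.149 for Wnt3a, 0 and 0.126 for Wnt7a, 0.015 and 0.125 for Wnt9a, and -0.248 and -0.046 for Wnt7b, where Wnt3a, Wnt7a and Wnt9a were lowest without control 3. The difference in summed FPKM ran between -7.345 and 13.01 for the 9 ligands other than Wnt10a and between -23.31 and -0.507 for all 10. Itpr1 passed with a filter at 5 FPKM, with the block, with limma-voom and without control 2. With the filter at 5 FPKM, Wnt10b and Wnt11 were not tested. Depth limits Wnt10b most, at no more than 70 rebuilt reads per library.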
